A study of Rattus norvegicus with 20 samples.

Results

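The hepatic mRNA levels of 10 genes of the antioxidant response and of aldehyde reduction were followed across 3 strains and 2 lines of rat. The genes were *Nfe2l2*, *Keap1*, *Gclc*, *Gclm*, *Txnrd1*, *Hmox1*, *Gsr*, *Akr7a3*, *Mt1* and *Glo1*, and all ProbeSets that the array annotation gives to these symbols were taken. They had 13 ProbeSets of a single gene, out of 15923 ProbeSets on the array. One further ProbeSet, 1371237_a_at, is annotated to *Mt1* together with *Mt1f* and *Ttr*, and its values are given apart. *Gclc*, *Keap1* and *Txnrd1* had 2 ProbeSets each. The 10 genes were chosen as a named functional group, by no threshold on a measured value, but with earlier results of these data known. Their counts beside the shares of all ProbeSets are therefore a description.

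Livers of 20 male rats were profiled with Affymetrix RAE230A arrays, 1 rat per array and 4 rats per group. Line-A (LnA) and Line-C (LnC) descend from crosses between 2 of the strains, Long-Evans (*Turku/AB*) and Han/Wistar (*Kuopio*). Line-A and Han/Wistar (H/W), a random-bred closed colony, carry the mutant AHR. Line-C, the in-bred Long-Evans (L-E) and the out-bred Sprague-Dawley (S-D) carry the wildtype *Ahr*. All rats were 10 to 12 weeks old, came from 1 breeding facility and were given corn oil by gavage 19 hours before the liver was taken, although the S-D labels say only control. No rat received a dioxin.

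In the resting cell the transcription factor NRF2, the product of *Nfe2l2*, is bound by KEAP1, which directs its degradation. Electrophiles modify KEAP1, after which NRF2 reaches the nucleus and binds antioxidant response elements of genes for glutathione synthesis, thioredoxin reduction and carbonyl reduction. Because this control acts on the protein, the mRNA of *Nfe2l2* is not a readout of NRF2 activity, whereas the mRNAs of its targets are commonly used as one. The aryl hydrocarbon receptor (AHR), which the strains carry in different forms, binds xenobiotic response elements and shares some target genes with NRF2. *Mt1* encodes a metallothionein, a small zinc and copper binding protein induced by metals through metal response elements and by glucocorticoids.

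Of the 10 genes, 8 were matched by symbol to a RefSeq promoter of the GRCr8 assembly (250 bases before to 50 bases after the annotated start, from which positions are counted). The first listed promoter of a gene was taken, and its start lay inside the annotated gene for *Nfe2l2*, *Gclc*, *Txnrd1* and *Glo1*. *Hmox1* and *Gsr* were not matched. Those of the genes whose levels covaried from rat to rat, described further on, are shown 5′ to 3′ from 250 bases before the start up to it. *Gclm* lies on the plus strand, and capitals mark the antioxidant response element core (TGACNNNGC on either strand), here on the minus strand from position -172. *Gclc* and *Akr7a3* lie on the plus strand, and capitals mark the xenobiotic response element core (GCGTG on either strand), which begins at positions -93 and -57. The annotated *Gclc* gene begins at chr8:87510251, so its marked core and most of the stretch shown lie inside the gene. *Mt1* lies on the minus strand, and capitals mark the metal response element cores (TGCACNC and TGCGCNC on either strand).
Gclm, chr2:213031885-213032134: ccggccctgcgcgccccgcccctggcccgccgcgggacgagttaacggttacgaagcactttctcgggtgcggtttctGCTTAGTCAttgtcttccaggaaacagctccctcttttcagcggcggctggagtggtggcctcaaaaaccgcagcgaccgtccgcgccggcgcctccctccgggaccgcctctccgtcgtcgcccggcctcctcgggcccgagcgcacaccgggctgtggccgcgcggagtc
Gclc, chr8:87510226-87510475: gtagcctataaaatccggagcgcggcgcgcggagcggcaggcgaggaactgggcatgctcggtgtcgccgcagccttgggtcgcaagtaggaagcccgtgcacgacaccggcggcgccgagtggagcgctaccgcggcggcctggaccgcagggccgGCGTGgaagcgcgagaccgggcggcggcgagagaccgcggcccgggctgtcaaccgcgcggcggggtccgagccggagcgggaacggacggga
Akr7a3, chr5:156876471-156876720: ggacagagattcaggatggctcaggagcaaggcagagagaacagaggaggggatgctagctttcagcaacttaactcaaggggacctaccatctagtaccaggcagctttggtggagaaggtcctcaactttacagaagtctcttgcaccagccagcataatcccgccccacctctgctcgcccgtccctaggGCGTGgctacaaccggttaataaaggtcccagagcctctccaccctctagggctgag
Mt1, chr19:10832976-10833225: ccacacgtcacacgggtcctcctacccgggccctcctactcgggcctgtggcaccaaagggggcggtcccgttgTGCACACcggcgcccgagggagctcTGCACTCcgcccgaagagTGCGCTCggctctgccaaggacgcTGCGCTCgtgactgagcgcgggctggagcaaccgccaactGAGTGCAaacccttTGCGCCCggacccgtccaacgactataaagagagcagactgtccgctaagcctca
The *Mt1* promoter held 6 metal response element cores, a number reached by 13 of 33465 rat promoters of the same length (0.0388%), while at least 1 was present in 24.2%. The antioxidant response element core was present in 12.1% of those promoters, and among the 8 matched genes in *Gclm*, in *Mt1* (position -101) and in *Nfe2l2* (position 39). The xenobiotic response element core was present in 29.7% of all promoters, and among the 8 matched genes in *Keap1* (positions -199, -176 and 35), *Gclc*, *Akr7a3* and *Glo1*. This core can overlap a metal response element core of the form TGCACGC, as in *Keap1* at position -201. In *Glo1*, whose promoter lies on the minus strand, it stood after the start, at position 33, within the window chr20:8683032-8683060.
Glo1: ggtcctttcggaGCGTGtcgccggcttgt
These matches describe the letters of 1 reference sequence and were not measured in the rats of this study.

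Values are log2 signals after GC-RMA, so a difference of 1 is a 2-fold change, and a ProbeSet counted as expressed from a mean signal of 4. One linear model with a mean per group was fitted to all ProbeSets with limma. A ProbeSet was called between groups by the F-test at a false-discovery rate (FDR) of 0.1% and in a pair at 1%, in each case with Benjamini-Hochberg adjustment over all ProbeSets, and every test was two-sided. The tissue was liver by its markers, with all 11 measured hepatocyte markers expressed and albumin (*Alb*) between 16.58 and 16.69 in the group means. The arrays were scanned on 5 days. Both lines shared 1 day, the S-D arrays were scanned apart by another operator, and L-E and H/W arrays fell on the 3 others, so a difference between a line and a parental strain, or between any group and S-D, cannot be told apart from a difference of scan day. A fit with scan day as a random block, given below for some of these pairs, does not separate them either, because no day holds both groups. For GAPDH, a control of RNA quality, the 3′ minus 5′ log2 signal averaged 0.34 in Line-A rats, 0.45 in Line-C rats, 0.49 in H/W rats, 0.28 in L-E and 0.56 in S-D, and the highest array was H/W replicate 3 at 0.81. L-E and S-D, the ends of this order, were also the lowest and highest groups for *Akr7a3* and *Gclm*, and the part of RNA quality in those differences was not tested.

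A set of 3 enzymes differed between the groups, each in a pattern of its own. *Hmox1*, heme oxygenase 1, which breaks heme down to biliverdin, was highest in L-E. *Akr7a3*, an aflatoxin aldehyde reductase, was highest in S-D. *Glo1*, glyoxalase 1, which detoxifies methylglyoxal with glutathione, was highest in Line-A. These were the 3 of 13 ProbeSets past the F-test, against 4.6% of all ProbeSets and 9.47% of those with a mean signal of at least 4, and leaving out any 1 array kept the count at 3. *Nfe2l2* and the better-measured ProbeSet of *Keap1*, its inhibitor, were not called in any pair at 1% FDR. At an FDR of 5%, *Gclm*, *Gsr* and the second *Keap1* ProbeSet also passed the F-test, for 6 of 13 against 30.5% of all ProbeSets.

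The regulators had narrow ranges of group means. *Nfe2l2* averaged 10.14 ± 0.19 in Line-A rats, 9.71 ± 0.41 in Line-C rats, 10.07 ± 0.22 in H/W rats, 9.71 ± 0.13 in L-E and 10.17 ± 0.28 in S-D (SD, n = 4 each), a 1.37-fold range of means (F-test, adjusted p = 0.0835). All 20 rats lay between 9.23 and 10.41. The Line-A rats (9.91 to 10.37) all lay above the L-E rats (9.61 to 9.87), and every other pair of groups overlapped. Line-A minus L-E did not pass 5% FDR (log2 difference 0.42, limma adjusted p = 0.0734). Line-C held the rat with the lowest value, and its 4 rats spanned a 1.95-fold range. *Keap1* on ProbeSet 1370066_at averaged 7.92 ± 0.03 in Line-A rats, 7.92 ± 0.02 in Line-C rats, 8.06 ± 0.14 in H/W rats, 7.99 ± 0.11 in L-E and 8.14 ± 0.11 in S-D (adjusted p = 0.0548). It had the smallest range of group means among the 13 ProbeSets, 1.16-fold. Both lines were lower than S-D at 5% FDR but not 1%, each by a log2 difference of -0.22 (limma adjusted p = 0.0294 for Line-A and 0.0438 for Line-C). On ProbeSet 1387810_at *Keap1* lay near the limit of expression, at 3.95 ± 0.19 in Line-A rats, 4.21 ± 0.16 in Line-C rats, 4.33 ± 0.41 in H/W rats, 4.93 ± 0.25 in L-E and 4.56 ± 0.17 in S-D. Here Line-A was lower than L-E by a log2 difference of -0.98 (SE 0.17, adjusted p = 0.00147, or 0.0185 with scan day as a random block), while the first ProbeSet put the same groups 0.07 apart. The deviations of single rats from their group mean on the *Keap1* ProbeSets had r = -0.23 and rho = -0.08 over 20 rats (permutation within groups, adjusted p = 0.52 and 0.76 over 4 ProbeSet pairs). Of 11 expressed genes of the NRF2 and KEAP1 network, 2 passed the F-test (18.2%, against the 9.47% of all expressed ProbeSets). *Sqstm1*, which encodes the autophagy receptor p62 that binds KEAP1, averaged 11.71 in Line-A rats, 11.25 in Line-C rats, 12.00 in H/W rats, 11.86 in L-E and 12.13 in S-D. *Rbx1*, a subunit of the ubiquitin ligase that KEAP1 serves, averaged 9.37, 9.53, 9.47, 8.96 and 9.33 in the same groups.

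**Figure D1:**
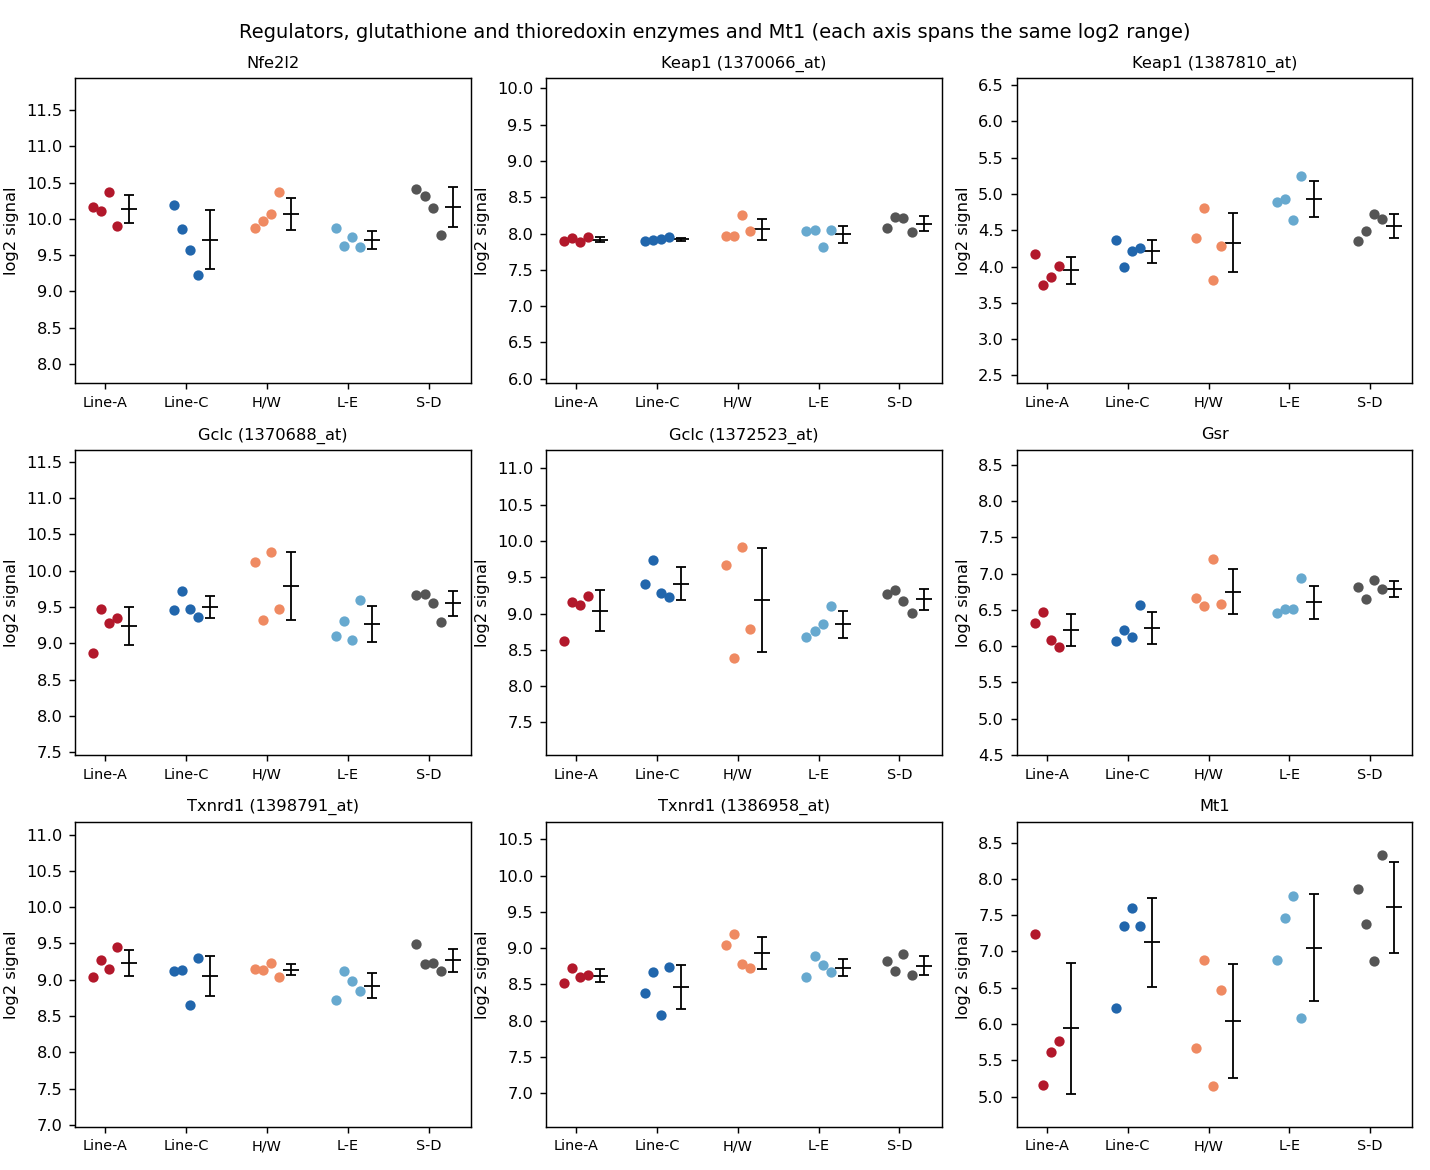
Log2 signals of single rats (points) with the mean and SD of each group (bar and whiskers, n = 4) for the ProbeSets of Nfe2l2, Keap1, Gclc, Gsr and Txnrd1 and for Mt1, in Line-A, Line-C, H/W, L-E and S-D. All panels span the same number of log2 units; the Keap1 ProbeSet 1370066_at has the narrowest range of means, 1.16-fold, and Mt1 the widest spread among rats of a group.

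Glutathione synthesis was measured through both subunits of glutamate-cysteine ligase, the rate-limiting enzyme. The modifier subunit *Gclm* was 9.88, 10.94, 10.69 and 11.02 in the 4 Line-A rats, 10.28, 10.99, 10.43 and 10.71 in Line-C, 10.95, 10.29, 10.88 and 10.68 in H/W rats, 10.09, 9.79, 10.38 and 10.55 in L-E, and 11.84, 11.22, 11.40 and 11.37 in S-D. Every S-D rat lay above every other rat. L-E was 2.39-fold lower than S-D (log2 difference -1.26, SE 0.24, adjusted p = 0.00277), and both lines were lower at 5% FDR, by -0.83 for Line-A and -0.86 for Line-C (adjusted p = 0.0268 and 0.0333). Leaving out S-D replicate 1, L-E replicate 1 or L-E replicate 2 brought the adjusted p of the L-E difference to as much as 0.0118, and scan day as a random block to 0.0293. The catalytic subunit *Gclc* had a narrower range of group means. On ProbeSet 1370688_at it averaged 9.24 ± 0.26 in Line-A rats, 9.50 ± 0.15 in Line-C rats, 9.79 ± 0.46 in H/W rats, 9.26 ± 0.25 in L-E and 9.55 ± 0.18 in S-D (F-test, adjusted p = 0.108). ProbeSet 1372523_at followed the first from rat to rat (r = 0.93 and rho = 0.93 of the deviations from the group mean, n = 20, permutation adjusted p = 1.6e-04 and 2.2e-04, r = 0.91 without the 2 rats farthest from the median), and H/W rats spread most on it, over 2.88-fold. *Gclc* was in no pair past 5% FDR on either ProbeSet.

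*Gsr*, glutathione reductase, averaged 6.22 ± 0.22 in Line-A rats, 6.25 ± 0.22 in Line-C rats, 6.75 ± 0.31 in H/W rats, 6.60 ± 0.22 in L-E and 6.79 ± 0.11 in S-D (SD, n = 4). Both lines had lower means than both of their parental strains. Against S-D the log2 difference was -0.57 for Line-A and -0.54 for Line-C (SE 0.15, adjusted p = 0.0184 and 0.0323), past 5% FDR but not 1%. The middle of the lines lay 0.44 below the middle of the parental strains (log2 difference -0.44, SE 0.11, adjusted p = 0.0119, a contrast that passed 5% FDR for 24.4% of all ProbeSets). *Txnrd1*, the cytosolic thioredoxin reductase, stayed within a 1.27-fold range of means on ProbeSet 1398791_at, with the lowest mean, 8.92 ± 0.17, in L-E and the highest, 9.27 ± 0.16, in S-D, and within 1.38-fold on ProbeSet 1386958_at. Of the 18 expressed genes of glutathione synthesis and recycling, 2 passed the F-test, a share of 11.1% that was near the 9.47% of all expressed ProbeSets. *Oplah*, the oxoprolinase that returns glutamate to glutathione synthesis, averaged 9.66 in Line-A rats, 9.51 in Line-C rats, 11.01 in H/W rats, 10.83 in L-E and 9.65 in S-D, so that both lines had less of it than both parental strains. *Gpx1*, glutathione peroxidase 1, averaged 13.43, 13.56, 13.76, 13.53 and 13.05 in the same groups. Of 14 expressed genes of the thioredoxin group 2 passed (14.3%, against 9.47%). Thioredoxin itself, *Txn1*, averaged 12.43 in Line-A rats, 12.46 in Line-C rats, 12.51 in H/W rats, 12.37 in L-E and 12.70 in S-D, where it was highest. *Msrb2*, a mitochondrial methionine sulfoxide reductase, averaged 7.55 in Line-A rats, 6.79 in Line-C rats, 7.57 in H/W rats, 7.72 in L-E and 7.56 in S-D, lowest in Line-C.

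*Hmox1* had the clearest contrast between the parental strains. Its signal was 5.61, 4.95, 6.04 and 6.01 in Line-A rats, 5.58, 5.61, 5.01 and 5.60 in Line-C rats, 4.89, 5.49, 5.36 and 4.52 in H/W rats, 7.01, 7.62, 6.71 and 7.28 in L-E, and 6.29, 6.37, 6.51 and 6.50 in S-D. All 4 L-E rats lay above all other rats, and no rat of either line reached the L-E range. H/W averaged 5.06 ± 0.45 against 7.16 ± 0.39 in L-E, 4.26-fold lower (log2 difference -2.09, SE 0.25, adjusted p = 1.35e-04). *Hmox1* was the only 1 of 13 ProbeSets called in this pair, in which 1.38% of all ProbeSets were called. Within scan days the difference was -2.12 (1 H/W rat and 1 L-E rat) and -1.78 (2 H/W and 3 L-E rats). On the 8 H/W and L-E arrays alone the adjusted p was 0.0198, and 0.0534 with scan day as a block. Against L-E the log2 difference was -1.50 for Line-A (adjusted p = 0.00117) and -1.71 for Line-C (adjusted p = 6.53e-04), and with scan day as a random block the adjusted p was 0.0172 and 0.0112. In order of level the groups were L-E, S-D, Line-A, Line-C and H/W, and no neighbours in this order but S-D and Line-A differed at 5% FDR. H/W was also lower than S-D by -1.36 (adjusted p = 0.00313, up to 0.0122 without 1 of H/W replicates 1 and 4 or S-D replicates 3 and 4, and 0.0184 with the random block).

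Resident macrophages of the liver, the Kupffer cells, express *Hmox1* strongly, and their markers also varied between the groups. All 11 measured Kupffer and macrophage markers were expressed, and their summed linear signal lay from 4612 to 6440 in Line-A rats, 7154 to 9213 in Line-C rats, 5657 to 7204 in H/W rats, 6764 to 9219 in L-E rats and 7106 to 8590 in S-D rats. The lowest of these sums was in a Line-A rat, and the lowest group mean of *Hmox1* was in H/W. The sums are weighted to the strongest marker, *Mpeg1*, which had a mean signal of 11.65. Of the 11 markers 5 passed the F-test (45.5%, against the 9.47% of all expressed ProbeSets). *Clec4f*, a receptor found on Kupffer cells and not chosen by the rule for named genes, averaged 9.55 in Line-A rats, 10.18 in Line-C rats, 9.72 in H/W rats, 10.23 in L-E and 10.27 in S-D. *Lyz2* (9.11 in H/W rats, 9.02 in L-E) and *Ptprc* (4.31 and 4.30) were not lower in H/W than in L-E, while the other markers of the list were. The part of Kupffer cells in the *Hmox1* difference was not tested, and in whole liver fewer cells of a type and less RNA per cell cannot be told apart. Of 8 expressed heme and bilirubin genes 1 passed the F-test, *Hmox1* itself, a share of 12.5% that was near the 9.47% of all expressed ProbeSets.

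*Akr7a3* had the widest range of group means of the 10 genes, 5.94-fold. It was 8.94, 10.50, 10.05 and 10.32 in Line-A rats, 8.89, 9.18, 8.61 and 8.81 in Line-C rats, 9.13, 8.62, 9.43 and 8.98 in H/W rats, 8.04, 8.14, 8.55 and 8.74 in L-E, and 11.25, 11.01, 10.62 and 10.87 in S-D. The S-D rats lay above all others, and 3 of the 4 Line-A rats lay above all rats of Line-C, H/W and L-E. Line-A replicate 1 lay among those of Line-C and H/W. Against S-D the log2 difference was -2.07 for Line-C (adjusted p = 1.25e-04), -1.90 for H/W (adjusted p = 3.69e-04) and -2.57 for L-E (adjusted p = 1.34e-05), with an SE of 0.28. Line-A was lower than S-D by -0.98, past 5% FDR but not 1% (adjusted p = 0.0232), and higher than L-E by 1.59 (adjusted p = 0.0015, or 0.0169 with scan day as a random block). In the order S-D, Line-A, H/W, Line-C and L-E, the first step passed 5% FDR and the others did not (Line-A minus H/W 0.91, adjusted p = 0.0634). Line-A exceeded Line-C by 1.08 (SE 0.28, adjusted p = 0.073). The gene beside it on chromosome 5, *Akr7a2*, encodes a related aldehyde reductase, and probes of related genes can share signal. *Akr7a2* averaged 10.65 in Line-A rats, 10.32 in Line-C rats, 10.04 in H/W rats, 9.98 in L-E and 10.25 in S-D (F-test, adjusted p = 0.00179, not past 0.1%). Whether the 2 genes share signal on these probes was not tested. Of 14 expressed aldehyde and carbonyl reductases 1 passed the F-test, *Akr7a3* itself, a share of 7.14% that was no higher than the 9.47% of all expressed ProbeSets. Markers of other liver cells stood apart in S-D, the group highest for *Akr7a3* and *Gclm*. The summed linear signal of 12 stellate cell and fibroblast markers, 8 of them expressed, lay between 613 and 1414 in the rats of the other groups, against 1759 to 3067 in S-D. That of 8 endothelial markers, 5 expressed, lay between 1941 and 2459, against 2950.2 to 3610.5 in S-D. That of 8 cholangiocyte markers, 2 expressed, lay between 173.5 and 589.7, against 671 to 709 in S-D. Such sums are weighted to the strongest markers, in S-D *Col3a1* (10.85), *Kdr* (10.19) and *Slc4a2* (9.07) of the respective lists. All expressed markers of these lists but *Stab1* (4.69 in S-D, 4.97 in L-E) had their highest mean in S-D. Most markers below the limit of expression did not, among them *Krt7*, *Spp1*, *Cldn4* and *Cldn7*. No S-D rat overlapped the others in these sums, and the part of such cells in the *Akr7a3* and *Gclm* differences was not tested.

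*Glo1* had the smallest differences in size among the called genes and the smallest spread within groups among them. Its signal was 10.70, 10.84, 10.75 and 10.71 in Line-A rats, 10.32, 10.13, 10.09 and 10.13 in Line-C rats, 10.17, 10.15, 10.42 and 10.43 in H/W rats, 10.60, 10.37, 10.43 and 10.65 in L-E, and 10.01, 10.08, 10.12 and 10.10 in S-D. Every Line-A rat lay above every other rat, the lowest of them at 10.70 against 10.65 in the highest L-E rat. Line-A exceeded Line-C by 0.58 (SE 0.07, adjusted p = 3.57e-04), the only 1 of 13 ProbeSets called in a pair in which 0.534% of all ProbeSets were called. It also exceeded H/W by 0.46 (adjusted p = 0.00116, or 0.0124 with equal array medians and 0.0126 with scan day as a random block) and S-D by 0.67 (adjusted p = 1.61e-05). Line-C was lower than L-E by -0.35 (adjusted p = 0.00743), a call lost when any of 10 single arrays was left out (adjusted p up to 0.0272) and with scan day as a random block (0.0512). In the order Line-A, L-E, H/W, Line-C and S-D, the step between Line-A and L-E passed 5% FDR (log2 difference 0.24, adjusted p = 0.0327) and the other steps did not. Line-A thus differed from both parental strains in the same direction at 5% FDR. It was the only member ProbeSet for which either line did so, against 4.12% of all ProbeSets for Line-A and 2.14% for Line-C, and the count was 0 with equal array medians or with scan day as a random block. Among 15 expressed aldehyde dehydrogenases and glyoxalases, 3 passed the F-test, against 9.47% of all expressed ProbeSets. The others were *Aldh1a1*, a cytosolic aldehyde dehydrogenase, at 8.37 in Line-A rats, 7.44 in Line-C rats, 9.97 in H/W rats, 11.45 in L-E and 8.95 in S-D, and *Aldh2*, the mitochondrial enzyme, at 12.26, 12.48, 12.68, 12.60 and 12.84 in the same groups.

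**Figure D2:**
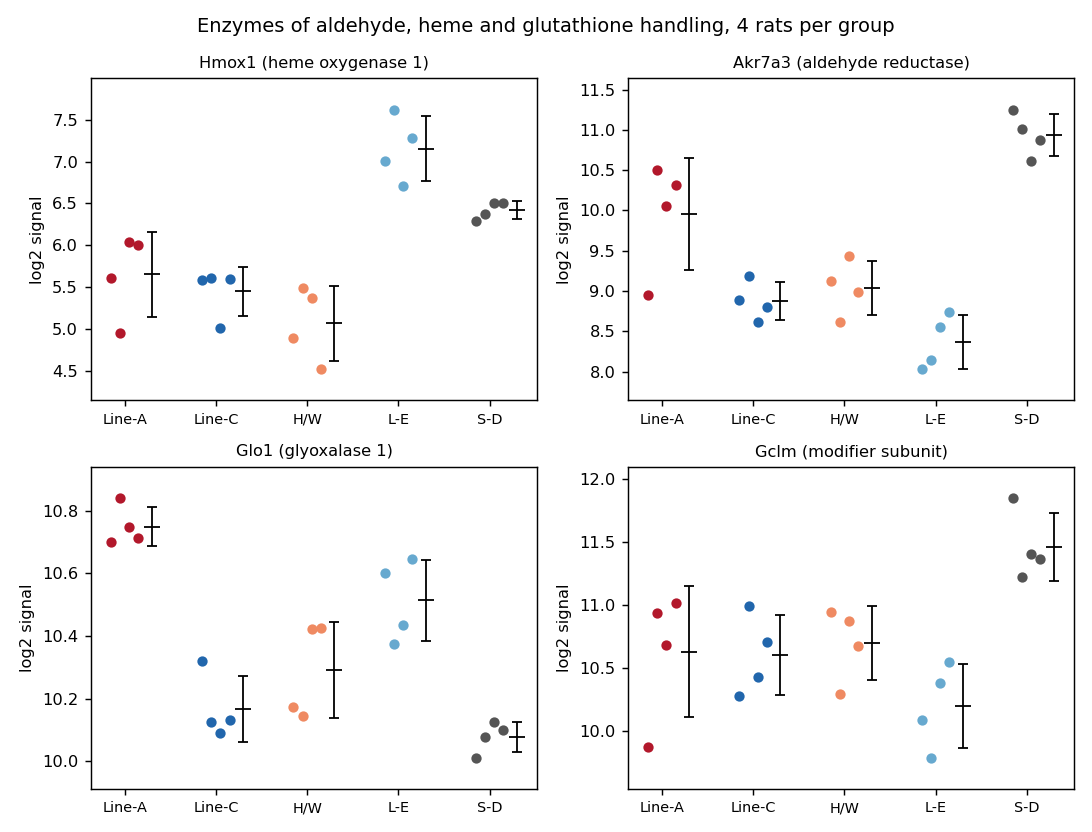
Log2 signals of single rats (points) with the mean and SD of each group (bar and whiskers, n = 4) for Hmox1, Akr7a3, Glo1 and Gclm in Line-A, Line-C, H/W, L-E and S-D; each panel has its own axis. The L-E rats lie above all others for Hmox1, the S-D rats for Akr7a3 and Gclm, and the Line-A rats for Glo1.

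*Mt1* varied mostly between rats of the same group. On ProbeSet 1388267_a_at it was 7.23, 5.16, 5.61 and 5.76 in Line-A rats, 6.22, 7.34, 7.59 and 7.35 in Line-C rats, 5.68, 6.89, 5.14 and 6.47 in H/W rats, 6.88, 7.46, 7.77 and 6.09 in L-E, and 7.87, 7.37, 6.87 and 8.33 in S-D. The 4 Line-A rats spanned 4.22-fold, and the rats of each other group at least 2.59-fold. The groups overlapped, and the F-test did not pass 5% FDR (adjusted p = 0.0508). Line-A was lower than S-D at 5% FDR (log2 difference -1.67, SE 0.50, adjusted p = 0.0292). Both groups with the mutant AHR had lower means than their wildtype counterparts, by -1.19 for Line-A minus Line-C and by -1.01 for H/W minus L-E, but neither passed (adjusted p = 0.445 and 0.294). The ProbeSet shared with *Mt1f* and *Ttr* followed the first closely from rat to rat (r = 0.94 and rho = 0.94, n = 20, permutation adjusted p = 1.6e-04 for each, r = 0.91 without the 2 rats farthest from the median). Its group means were 10.91 in Line-A rats, 13.17 in Line-C rats, 10.91 in H/W rats, 13.54 in L-E and 13.19 in S-D, while *Ttr* on its own ProbeSet lay between 15.23 and 15.40. This shared ProbeSet passed the F-test at 5% FDR but not at 0.1% (adjusted p = 0.0356), with Line-A lower than L-E by -2.63 and than S-D by -2.28 (SE 0.84, adjusted p = 0.0343 and 0.0457). Its differences of -2.26 for Line-A minus Line-C and -2.63 for H/W minus L-E did not pass (adjusted p = 0.311 and 0.106). Of 8 expressed metallothionein and zinc genes 2 passed the F-test, against 9.47% of all expressed ProbeSets, and both are zinc importers. *Slc39a4* was highest in Line-A at 7.58, against 6.67 in Line-C, 6.50 in H/W rats, 6.58 in L-E and 6.47 in S-D, and *Slc39a1* averaged 10.10, 10.33, 10.89, 10.32 and 10.77 in the same groups.

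Over the 10 pairs, 0 to 3 of the 13 ProbeSets were called at 1% FDR. The count was 0 for Line-C minus H/W, where no ProbeSet passed 5% either and 1.7% of all ProbeSets were called. It was 1 for H/W minus L-E and for Line-A minus Line-C, with the shares given above, and for Line-A minus H/W (2.84% of all ProbeSets called), Line-A minus S-D (6.59%) and Line-C minus S-D (4.3%). It was 2 for Line-C minus L-E (3.71%) and H/W minus S-D (3.27%), and 3 for Line-A minus L-E (5.66%) and L-E minus S-D (5.07%). The differences from S-D, which share the same 4 S-D arrays, ran mostly downward for these genes. In Line-A 12 of 13 ProbeSets had a lower mean than in S-D, 7 of them at 5% FDR, and the median difference was -0.31, against 0.07 over all ProbeSets. In Line-C 11 of 13 were lower, 5 at 5% FDR, with a median of -0.35 against 0.06. Of all ProbeSets, 8.17% were lower at 5% FDR in Line-A than in S-D and 5.26% in Line-C than in S-D. Against S-D, 10 of 13 were lower in H/W rats and likewise in L-E rats, with medians of -0.10 and -0.29, against 0.04 and 0.003 over all ProbeSets. The share of all ProbeSets with a lower mean was not taken for these pairs. *Glo1* had a higher mean in each of the 4 other groups than in S-D.

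The share of variance within strains (W/T) of the 13 ProbeSets had a median of 0.58, against 0.62 over the 7168 expressed ProbeSets. It was lowest for *Glo1* (0.14), *Akr7a3* (0.14) and *Hmox1* (0.17), for which most of the variance lay between groups. It was 0.34 for the weak *Keap1* ProbeSet, 0.42 for *Gclm*, 0.45 for *Gsr*, 0.58 for *Mt1* and for the other *Keap1* ProbeSet, 0.67 for *Nfe2l2*, and 0.64 and 0.75 for *Txnrd1*. *Gclc* had 0.72 and, the highest of the 13 ProbeSets, 0.94, so that most of its variance lay between rats of a group.

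The lines share a mixed L-E and H/W background and differ in *Ahr* genotype, and their comparison asks which mRNA levels go with that genotype. Each genotype is carried by a single line, so *Ahr* cannot be told apart from any other locus that differs between Line-A and Line-C. In a model with terms for the S-D, L-E and H/W backgrounds (equal shares of H/W and L-E for both lines) and for the mutant AHR, the *Ahr* coefficient equals the difference between Line-A and Line-C. *Glo1* was the only 1 of 13 ProbeSets with an *Ahr* term past 5% FDR (0.58, SE 0.07, adjusted p = 4.62e-04), against 0.659% of all ProbeSets. Between the parental strains its difference ran the other way, at -0.22 (SE 0.07, adjusted p = 0.126). The difference between these 2 differences was 0.80 (SE 0.10, adjusted p = 3.36e-04). The same contrast was 2.30 for *Hmox1* (SE 0.36, adjusted p = 0.00215), which did not pass between the lines (0.20, 95% interval -0.33 to 0.74) and was -2.09 between the parental strains. These were 2 of 13 ProbeSets past 5% FDR for this contrast, against 2.01% of all ProbeSets. *Nqo1*, a quinone reductase and target of both NRF2 and AHR that is not among the 10 genes, had 3.96 on this contrast (SE 0.98, adjusted p = 0.0488), from -0.05 in the lines and -4.01 in the strains. *Akr7a3* differed in the same direction in both, by 1.08 in the lines and 0.67 in the strains, and passed in neither (adjusted p = 0.073 and 0.22). The middle of the lines differed from the middle of the parental strains at 5% FDR for 5 of 13 ProbeSets, against 24.4% of all ProbeSets. It lay above for *Akr7a3* (0.71, SE 0.20, adjusted p = 0.0224). It lay below for the weak *Keap1* ProbeSet 1387810_at (-0.55, adjusted p = 0.00585), for *Gsr* as given above, for *Txnrd1* on ProbeSet 1386958_at (-0.29, adjusted p = 0.0361) and for *Hmox1* (-0.56, adjusted p = 0.0377).

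**Figure D3:**
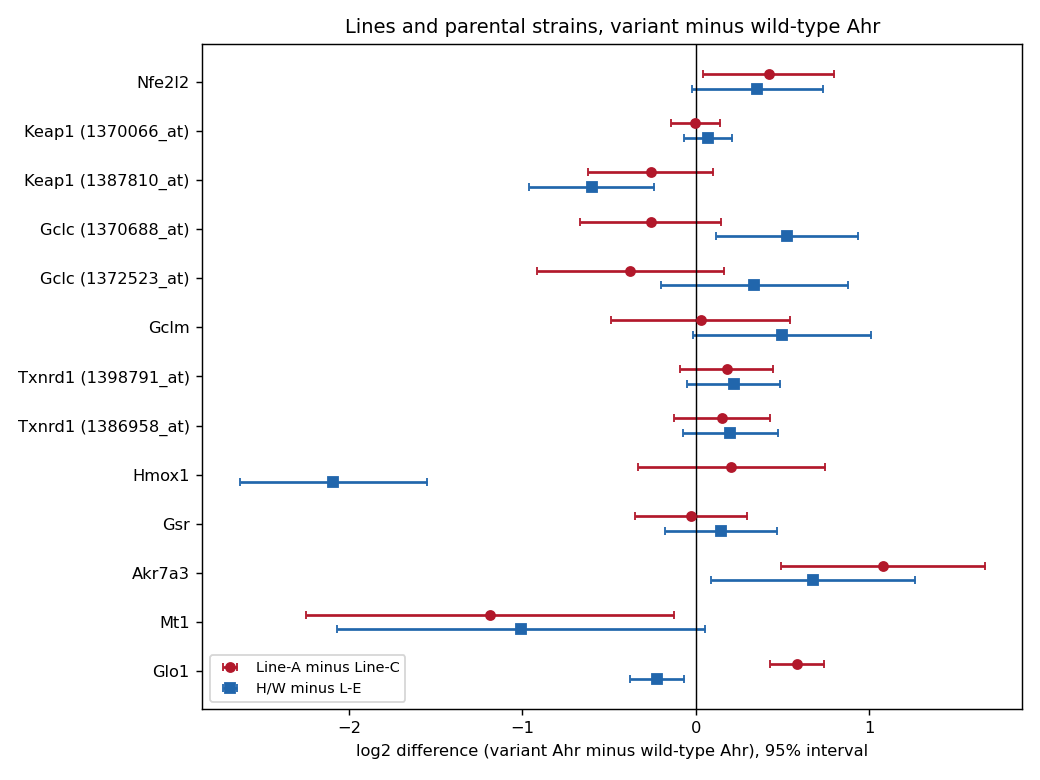
Log2 differences of the 13 ProbeSets for Line-A minus Line-C (circles) and H/W minus L-E (squares), each mutant AHR minus wildtype, with 95% intervals from the limma fit. Hmox1 is near 0 in the lines and at -2.09 in the strains, and Glo1 is at 0.58 in the lines and -0.22 in the strains.

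From rat to rat within a group, both *Gclm* and *Gclc* moved with *Akr7a3*, the 2 of 45 pairs that passed 5% by r and by rho. Deviations of the 20 rats from their group means were correlated for all 45 pairs of the 10 genes, taking the ProbeSet with the highest mean for each, with p-values from 100000 permutations within groups. *Gclm* and *Akr7a3* had r = 0.87 and rho = 0.81 (adjusted p = 0.0117 and 0.0149, n = 20). Without the 2 rats farthest from the median of *Gclm* r was 0.80, and within the 8 rats of the lines, whose arrays share a scan day, it was 0.91. *Gclc* and *Akr7a3* had r = 0.72 and rho = 0.76 (permutation adjusted p = 0.0234 and 0.0198), 0.67 without 2 rats and 0.94 within the lines. *Gclc* and *Gclm*, the subunits of 1 enzyme, had r = 0.63 and rho = 0.60, which did not pass (permutation adjusted p = 0.0674 and 0.105). *Gclc* and *Mt1* had r = -0.75 and rho = -0.74, past 5% by r and not by rho (permutation adjusted p = 0.0374 and 0.0531), -0.68 without 2 rats and -0.66 within the lines. Line-A replicate 1 was an extreme of this pattern, lowest in its group for *Gclm*, *Gclc* and *Akr7a3* and highest for *Mt1*. No pair with *Nfe2l2* passed, and its r with *Gclc*, *Gclm* and *Akr7a3* lay between -0.12 and 0.05. Deviations of *Gclc*, *Gclm*, *Akr7a3*, *Mt1*, *Hmox1* and *Glo1* from the group mean had r between -0.27 and 0.48 with those of the GAPDH 3′ to 5′ signal difference (permutation adjusted p at least 0.81 over 6 genes). The livers were taken over part of a morning, and the hour of each rat was not used here.

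**Figure D4:**
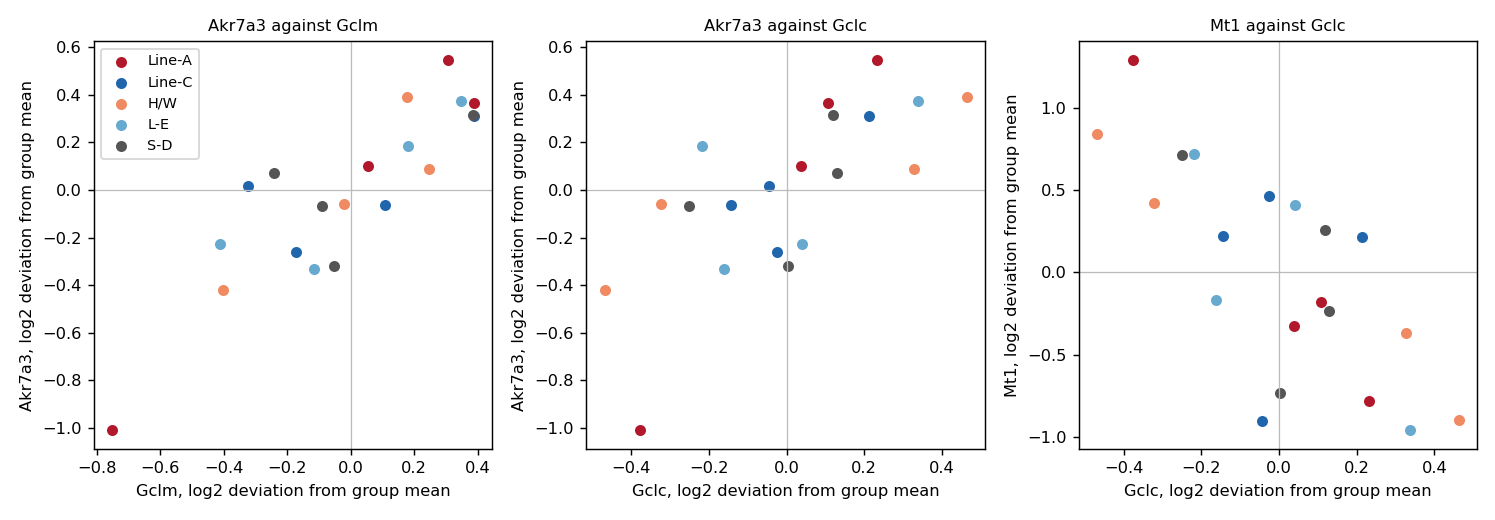
Log2 deviation of each of 20 rats from its group mean for Akr7a3 against Gclm, Akr7a3 against Gclc and Mt1 against Gclc; colours mark Line-A, Line-C, H/W, L-E and S-D. The points rise together in the first and second panels (r = 0.87 and 0.72) and run downward in the third (r = -0.75), and the point at the lower left of the first panel is Line-A replicate 1.

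The genes most like each of the 3 called genes were sought among 5387 expressed genes by Pearson correlation over the 20 arrays, as a description, since group differences enter it. For *Hmox1* they were *Bckdha* (r = 0.82), *Prodh2* (0.81) and *Fundc2* (0.80), and within groups the same pairs had r of only 0.11, 0.08 and 0.17. *Bckdha*, a subunit of the branched-chain ketoacid dehydrogenase, and *Prodh2*, a hydroxyproline dehydrogenase, were like *Hmox1* highest in L-E. For *Akr7a3* they were *Aga* (0.92), *Lrrc8d* (0.91) and *Dnajc1* (0.89), and *Lrrc8d*, a subunit of a volume-regulated anion channel, had r = 0.78 within groups. For *Glo1* they were the olfactory receptor gene *Olr59* (0.94), *Lrrc59* (0.91) and *Ndufv2* (0.85), with 0.55, 0.54 and 0.57 within groups. *Olr59* averaged 8.44 in Line-A rats, 4.84 in Line-C rats, 6.0 in H/W rats, 7.6 in L-E and 3.96 in S-D, the same order of groups as *Glo1*. The 3 annotated neighbours on each side were taken for *Hmox1* (chr19:13452365-13479823), *Akr7a3* (chr5:156876721-156884599) and *Glo1* (chr20:8665061-8683095) in GRCr8, and not all of them had a ProbeSet. Of those that did, none passed the F-test at 0.1%, against 4.6% of all ProbeSets. For so few genes, no call is near that share. *Akr7a2* had the lowest adjusted p among these neighbours.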

How the data were processed

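Liver total RNA of 20 rats, 4 per group, was hybridised to Affymetrix RAE230A arrays. The deposited values are log2 signals per ProbeSet, which the authors made with GC-RMA (background by probe GC content, quantile normalization, summary of probes), and per the labels R 2.6.1, affy 1.12.0 and GCRMA 2.10.0 were used. They were used without further scaling. The array header files gave scan day, chip lot and operator; no other value of them was used. The number of arrays limits the precision.

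The fits used limma 3.58.1 and statmod 1.5.0 under R 4.3.3, and p-values were adjusted by Benjamini-Hochberg over all 15923 ProbeSets. W/T came from a one-way random model. The steps were tested on simulated data. Alternatives were limma's trend, array weights, further scalings, a filter on low signals, a replicate block, scan-day blocks, single pairs and leaving out each array. The members and the gene lists were chosen with earlier results of these data known, and no list was tested as a set. Named genes were the member ProbeSets, up to 5 genes per list past the F-test, *Nqo1*, and the 3 genes most like, and 3 neighbours on each side of, each member past it. Promoters were taken from RefSeq (GRCr8).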

Additional observations from a re-analysis of the deposited data

Results flagged for a closer look

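In 4 cases a single rat stood far from the other 3 of its group, past the 95% limit for a gap relative to the group's range. These were L-E replicate 3 for *Keap1* on ProbeSet 1370066_at (7.82, others 8.04 to 8.05), Line-C replicate 3 for *Hmox1* (5.01, others 5.58 to 5.61), H/W replicate 3 for *Gsr* (7.21, others 6.56 to 6.66) and L-E replicate 4 for *Gsr* (6.93, others 6.45 to 6.52). H/W replicate 3 also had the highest GAPDH 3′ minus 5′ signal of the 20 arrays (0.81), and its part in the *Gsr* value was not tested. In 65 groups of 4 rats examined there were 4 such cases, and chance alone gives about 1 in 20. The difference between Line-A minus Line-C and H/W minus L-E was itself past 5% FDR by limma for *Hmox1* (2.30, adjusted p = 0.00215) and *Glo1* (0.80, adjusted p = 3.36e-04).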

How the results depend on the processing

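The count of 3 of 13 member ProbeSets past the F-test was the same under each alternative run. Counts of members called moved as follows. In H/W minus L-E (1) the count was 0 on the 8 arrays alone, on the arrays of 1 shared scan day (*Hmox1* -1.78, adjusted p = 0.204) and with scan day as a fixed block, an alternative chosen after seeing the data. In Line-A minus H/W (1) it was 0 with equal array medians, scan day as a random block or the 8 arrays alone. In Line-A minus L-E (3) it was 5 with array weights, and 0 with the random block or the 8 arrays alone. In Line-C minus L-E (2) it was 1 with limma's trend, with the replicate block and on 8 arrays, and 0 with the random block. In Line-A minus S-D (1) it was 8 with array weights and 2 with the filter on low signals. In Line-C minus S-D (1) it was 6 with array weights and 2 with the filter or 8 arrays. In H/W minus S-D (2) it was 1, and in L-E minus S-D (3) it was 1 on 8 arrays, the first also with the random block. The *Ahr* term (1) had 2 with array weights. Outside both parents (1) there were 3 with array weights, 2 with the filter, and 0 with equal medians or the random block. The share of all ProbeSets called was taken for the main fit only. Without such a share, the counts under an alternative are not results about the members. The cause of these changes was not tested. Without 1 array at a time the counts were 1 to 2 for Line-A minus Line-C and Line-A minus H/W, 1 to 3 for Line-C minus L-E, 1 to 5 for Line-A minus S-D, 1 to 2 for Line-C minus S-D and H/W minus S-D, 2 to 3 for L-E minus S-D and 0 to 2 outside both parents, and the median W/T was 0.46 to 0.62. Line-A replicate 1 and H/W replicate 3 gave the higher counts against S-D. No member difference called in a pair at 1% FDR changed its direction under these alternatives. Neither did the *Ahr* term of *Glo1* or the contrast of line and strain differences for *Hmox1* and *Glo1*. Other reported differences were not followed for direction. Same-numbered rats did not deviate together (mean r = -0.01 over 40 pairs, 6 above 0.1), so the replicate numbers share only a number.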

Other observations

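*Mt2A*, the second metallothionein on the array, was named after its values were seen. It averaged 8.12 in Line-A rats, 10.79 in Line-C rats, 8.52 in H/W, 10.63 in L-E and 10.18 in S-D, with both groups of mutant AHR below the wildtype groups, as in *Mt1*, and did not pass the F-test (limma, adjusted p = 0.0746).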
